A study of Mus musculus with 2 samples.

Results

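The 10 genes described here encode elastin and proteins of the microfibrils on which elastin is laid down: Eln, Fbn1, Fbn2, Mfap2, Mfap4, Mfap5, Fbln5, Efemp1, Efemp2 and Emilin1. They were chosen by their symbols, with earlier results of these data known, and all 10 were found among the 32285 genes of the count matrix. The cells came from knee joints of the hindlimbs of mouse pups of both sexes at postnatal day 7, taken after skin and paws were removed. The pups were either wild type or knockout for Col12a1, which encodes collagen XII, a collagen found on the surface of collagen fibrils in tendon, ligament and fascia. Joints were digested for 6 h in 4 mg/mL collagenase II, and single cells were profiled with 10x Genomics 3′ version 3 chemistry, with 1 library per genotype in experiment 1 and 2 per genotype in experiment 2. All libraries are in 1 merged matrix whose barcodes end in 1 of 2 numbers, called barcode sets here, and the sources used here do not say which set holds which genotype or library. The matrix was therefore treated as 1 sample without replicates, wild type was not compared with knockout, and every value below is given for the merged cells and, where it matters, for each barcode set.

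Of 24203 barcodes, 15174 had at least 500 genes, at least 1000 unique molecular identifiers (UMIs, each 1 captured RNA molecule) and at most 10% mitochondrial UMIs. These were 7160 cells of set 1, with a median of 10964 UMIs, and 8014 of set 2, with a median of 9623, and 14 barcode sequences occurred in both sets among them. Clusters were formed without the genes compared here and named from marker genes, so that "X-like" means only that a cluster carried markers of X. The 5 connective tissue classes were fibroblast-like (3821 cells, 25.2% of all), chondrocyte-like (870), tenocyte or ligament fibroblast-like (700), osteoblast-like (482) and synovial lining fibroblast-like cells (157). Pericyte or smooth muscle-like cells numbered 102, and 4847 cells were B cell-like, neutrophil-like or erythroid-like. These last 3, called the blood classes, should lack elastic fibre genes, so their level was used as the background from free RNA. Whether free RNA reached the same level in the other classes was not tested. Col12a1, the targeted gene, had 137 CPM (UMIs per 1000000 UMIs of the class) in set 1 and 1120 in set 2 of the tenocyte or ligament fibroblast-like cells, and no genotype was assigned from it.

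Elastic fibres let a tissue stretch and recoil. Fibrillins polymerise into beaded microfibrils, microfibril-associated glycoproteins attach to them, and secreted tropoelastin, the product of Eln, is guided onto this scaffold by short fibulins before lysyl oxidases crosslink it. In tendon and ligament, fibrillin microfibrils run between and around the collagen fibres and the cells, while in arteries smooth muscle cells deposit elastin in lamellae. In the knee, elastic fibres are also known from the joint capsule, from ligaments and from the loose tissue beneath the synovial lining.

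Promoters are shown for 4 members because the levels of these genes told the classes apart: Fbn1 and Efemp1, which were high in fibroblast-like cells, Efemp2, the paralogue of Efemp1, which was even, and Emilin1, which was low in fibroblast-like cells. They are RefSeq sequences of build GRCm38.p6, from 250 bases before to 50 after a start site, printed 5′ to 3′ on the strand of the gene. Fbn1 lies at chr2:125506389-125506688 on the minus strand, Efemp1 at chr11:28852955-28853254 on the plus strand, the second of 3 listed Efemp2 start sites at chr19:5474440-5474739 on the plus strand, and Emilin1 at chr5:30913536-30913835 on the plus strand. Capitals mark matches on either strand, overlapping ones included. The motif searched for the TATA box was TATAAA, the second was CCAAT as it stands, the GC box was read as GGGCGG, the AP-1 site as TGANTCA and the TEAD site as GGAATG. 6 of the 10 members had a promoter in the RefSeq table, and Eln, Fbn2, Mfap4 and Mfap5 did not.
Fbn1: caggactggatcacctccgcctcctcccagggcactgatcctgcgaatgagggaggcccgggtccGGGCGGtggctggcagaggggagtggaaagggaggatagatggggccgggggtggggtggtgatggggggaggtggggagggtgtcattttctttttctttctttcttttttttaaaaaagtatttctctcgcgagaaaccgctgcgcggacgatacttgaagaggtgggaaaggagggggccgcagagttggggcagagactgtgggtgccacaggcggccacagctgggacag
Efemp1: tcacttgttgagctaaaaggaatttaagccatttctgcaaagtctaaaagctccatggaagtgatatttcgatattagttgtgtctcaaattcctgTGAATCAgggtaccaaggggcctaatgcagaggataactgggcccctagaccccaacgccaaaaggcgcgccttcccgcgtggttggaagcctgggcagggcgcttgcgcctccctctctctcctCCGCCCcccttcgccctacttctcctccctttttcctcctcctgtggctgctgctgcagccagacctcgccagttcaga
Efemp2: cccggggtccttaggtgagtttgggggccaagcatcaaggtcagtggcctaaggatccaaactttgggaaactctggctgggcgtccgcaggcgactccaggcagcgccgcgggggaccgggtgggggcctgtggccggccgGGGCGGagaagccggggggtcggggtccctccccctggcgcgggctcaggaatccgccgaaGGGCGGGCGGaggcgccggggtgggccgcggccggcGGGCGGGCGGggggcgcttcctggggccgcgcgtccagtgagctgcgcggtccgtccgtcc
Emilin1: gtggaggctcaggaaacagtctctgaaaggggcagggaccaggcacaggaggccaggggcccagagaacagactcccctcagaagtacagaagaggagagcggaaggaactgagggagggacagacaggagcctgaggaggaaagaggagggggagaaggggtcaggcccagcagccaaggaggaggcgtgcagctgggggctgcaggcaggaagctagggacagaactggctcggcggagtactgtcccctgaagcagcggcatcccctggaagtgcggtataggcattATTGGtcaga

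The Efemp2 window held 5 GC boxes and 35 CpG dinucleotides, and 76% of its bases were G or C. The other 3 windows held 14 (Fbn1), 11 (Efemp1) and 6 (Emilin1) CpG dinucleotides, against a median of 7 over all 32851 promoters of the table. The Efemp1 window had an AP-1 match at position -154, counting the start base as 1 and the base before it as -1, and a GC box at -29. The Fbn1 window had 1 GC box at -185, and the Emilin1 window a CCAAT box at 41. Of all promoters in the table, 35.7% held a GC box, 37.4% a CCAAT box, 13.6% a TATA box, 7.81% an AP-1 match and 14.7% a TEAD match, so these matches are descriptions of the letters in the windows and not evidence of binding.

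Among the named classes, fibroblast-like cells expressed the most members. All 10 were called above the blood classes there, where 35.7% of all genes tested were called, and an unnamed cluster of 247 cells (cluster 21) also had all 10 (30.01% of all genes). A gene was called when both sides together held at least 100 UMIs, when the ratio of CPM was at least 2 or at most 0.5 with a 95% interval that left out 1, and when the ratio lay on the same side of 1 in both barcode sets. Intervals cover counting error only, here and throughout. In tenocyte or ligament fibroblast-like and in osteoblast-like cells, 8 of 10 members were above blood (31.0% and 32.6% of all genes), the exceptions in both being Mfap5 and Efemp1. In chondrocyte-like cells 6 members were above blood (29.8% of all genes), without Eln, Fbn1, Mfap4 and Mfap5, and in synovial lining fibroblast-like cells also 6 (31.3%), without Eln, Fbn2, Mfap4 and Mfap5. Pericyte or smooth muscle-like cells had 7 members above blood (28.9% of all genes), without Mfap4, Mfap5 and Efemp1.

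Several members were found in the same fibroblast-like cell. After each cell was thinned to 2000 UMIs to remove differences in depth, a fibroblast-like cell held UMIs of a median of 4 of the 10 members, and 80.3% of such cells held at least 3. The median was 3 members in tenocyte or ligament fibroblast-like cells, 2 in osteoblast-like cells and 0 in blood cells, of which 1.55% held at least 3. Mfap5 was found in 83.5% and Fbn1 in 73.8% of thinned fibroblast-like cells, and Eln in 33.1%. In thinned blood cells the shares of the 10 members lay between 0.547% and 2.71%. Before thinning, the median depth was 13312 UMIs in fibroblast-like and 5397 in blood cells.

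**Figure D1:**
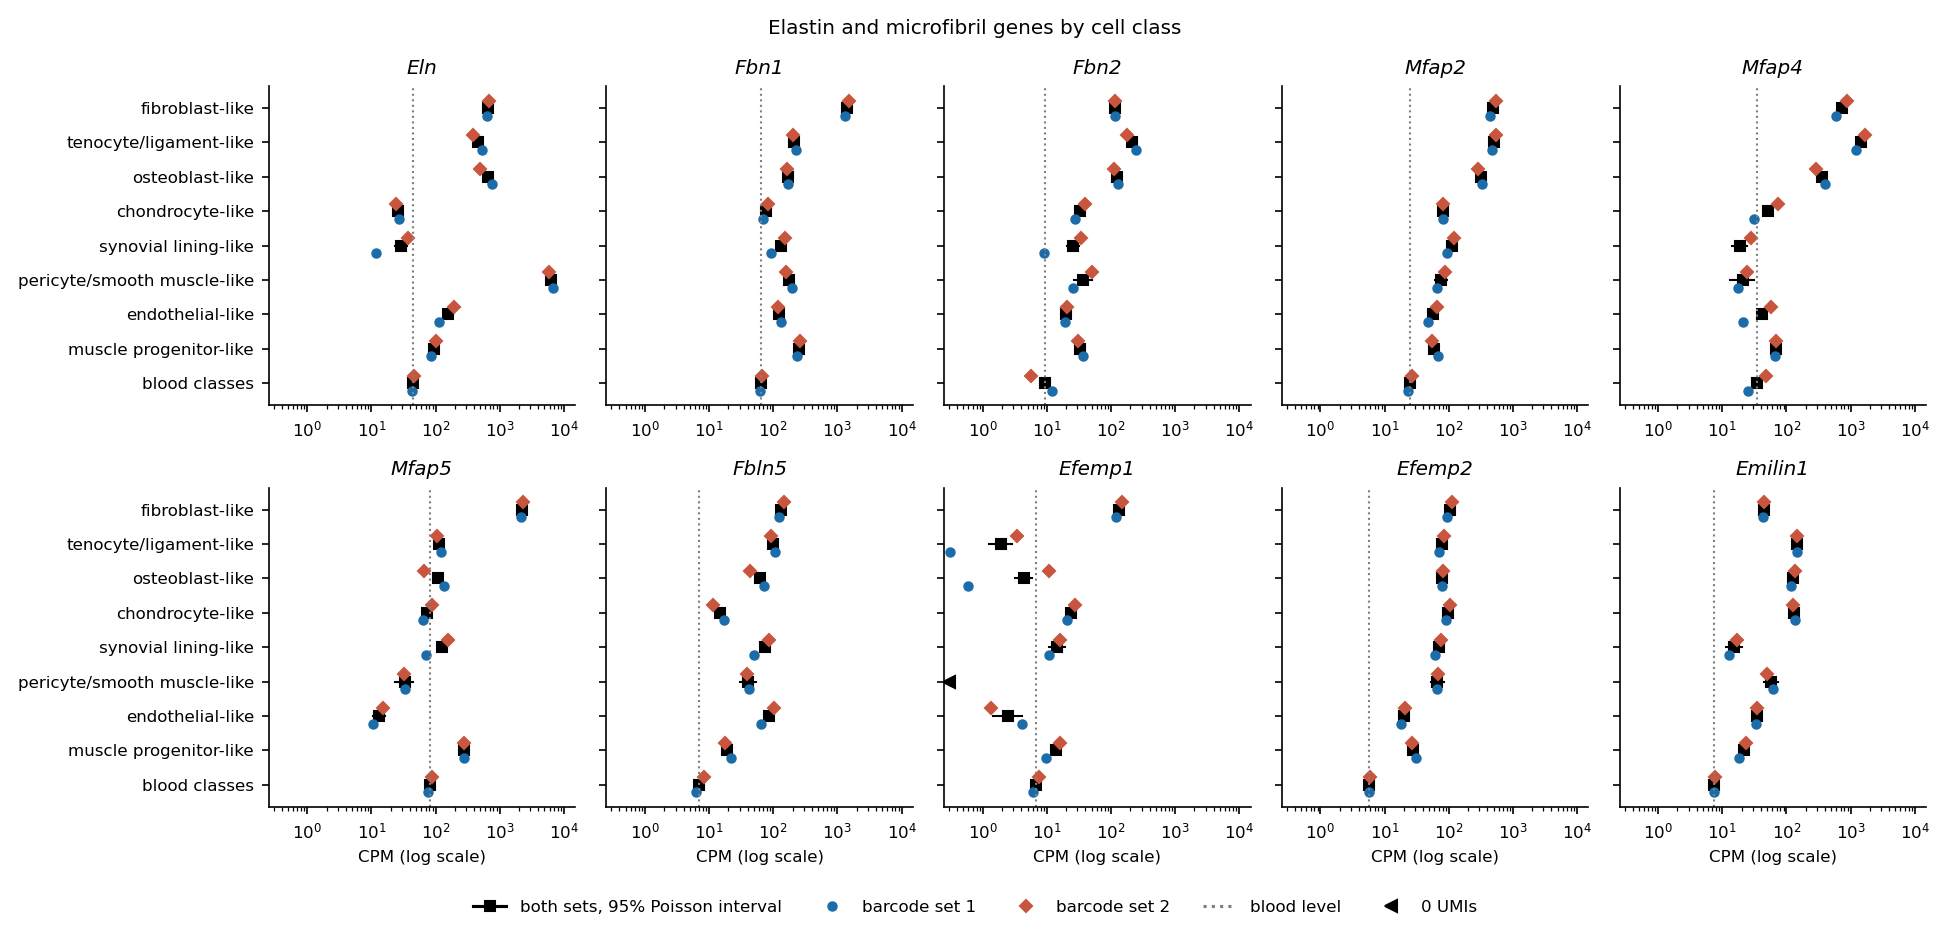
Level of each member (CPM, log axis) in 8 cell classes and the blood classes: squares are both barcode sets with the 95% Poisson interval, circles set 1, diamonds set 2, the dotted line the blood level and a triangle 0 UMIs. The fibroblast-like points lie above blood for all 10 members, and the highest point of the plot is Eln in pericyte or smooth muscle-like cells, at 6825 CPM in set 1 and 5917 in set 2.

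Eln, the elastin gene, was highest in the pericyte or smooth muscle-like cells and was present in 3 of the 5 connective tissue classes. Its level was 6406 CPM in pericyte or smooth muscle-like cells (6825 in set 1 and 5917 in set 2) against 44.1 CPM in blood. Osteoblast-like cells followed at 667 CPM (765 and 498) and fibroblast-like cells at 651 (629 and 672), and these neighbours in the order did not separate. Tenocyte or ligament fibroblast-like cells had 456 CPM (532 and 387), below fibroblast-like cells in both sets. Chondrocyte-like and synovial lining fibroblast-like cells, at 25.8 and 29.1 CPM, did not exceed the blood level.

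The 102 pericyte or smooth muscle-like cells, 0.672% of all cells, had 12.5 times the Eln level of the pooled connective tissue classes. Eln was the 1 member called higher in this comparison (12.7% of all genes were called higher) and 7 members were called lower (11.1% of all genes). The Eln RNA was unevenly spread: 10 of the 102 cells, 6 of set 1 and 4 of set 2, held 80.0% of the 7410 Eln UMIs of the class. The median cell had 554 CPM of Eln and the highest 61725. Those 10 cells together had 21442 CPM of Eln and the other 92 had 1686.

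Within this class, the cells with most Eln were compared with the rest on contractile and pericyte markers. The 10 cells had 13084 CPM of Acta2, smooth muscle actin, against 5992 in the others, and 633 CPM of Cnn1, the smooth muscle protein calponin, against 186. Rgs5 and Kcnj8, markers of pericytes, were lower in the 10 cells, with 1357 against 5057 CPM of Rgs5 and 39.8 against 231 of Kcnj8. The 78 cells with a UMI of Myh11, smooth muscle myosin, had 7385 CPM of Eln, and the 24 without had 476, with median depths of 9511 and 5335 UMIs. Cells with a UMI of a pericyte marker also had more Eln than those without: 6787 against 4320 CPM for Rgs5, 8677 against 3931 for Kcnj8 and 8158 against 4538 for Abcc9. They too were deeper, with medians of 8639 against 6382 UMIs for Rgs5 and 12544 against 6416 for Kcnj8. The 10 cells were picked by their Eln UMIs, so these values are descriptions, and fewer contractile cells and less Eln RNA per cell cannot be told apart in the class total. The fibroblast markers, 8 genes, summed to 521 CPM in this class and to 520 CPM in blood.

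**Figure D2:**
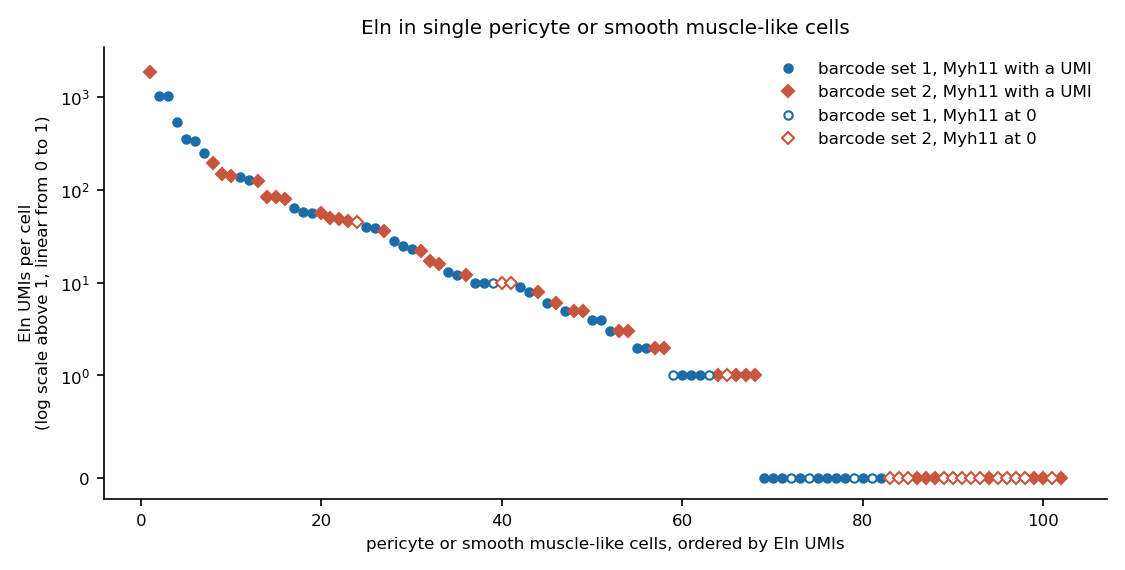
Eln UMIs per cell (log axis above 1, linear from 0 to 1) in the 102 pericyte or smooth muscle-like cells, 1 point per cell in order of Eln, circles for set 1 and diamonds for set 2, filled where the cell had a Myh11 UMI. The highest cell has 1887 Eln UMIs, 66.7% of the cells have at least 1, and open points lie mostly at 0.

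Eln in the connective tissue classes also came in part from few cells. In osteoblast-like cells the median cell had no Eln UMI, 10 cells held 42.2% of the class's Eln UMIs, and the level without them was 409 CPM. In tenocyte or ligament fibroblast-like cells 10 cells held 31.0%. In fibroblast-like cells 10 of 3821 held 15.2%, and the median cell had 105 CPM. Eln in fibroblast-like cells was 2.13 times that of the other connective tissue classes (95% interval 2.09 to 2.17), 1.70 in set 1 and 2.88 in set 2. The ratio met the call rule in the merged cells, but set 1 alone, at 1.70, did not reach 2, and over 23 alternative settings the ratio ran from 1.47 to 2.88 and lost its call in 8.

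In the comparison of fibroblast-like cells with the 4 other connective tissue classes pooled, 5 of the 10 members were called higher (8.87% of the 14391 genes tested) and 1 lower (11.0%). Those higher were Eln, Fbn1, Mfap5, Fbln5 and Efemp1, and the 1 lower was Emilin1. The median log2 ratio was 0.99 over the members and -0.03 over all genes tested. Tenocyte or ligament fibroblast-like cells had 3 members called higher (4.59% of all genes), Fbn2, Mfap4 and Emilin1, and 3 called lower (11.0%), Fbn1, Mfap5 and Efemp1. Osteoblast-like cells had 0 members called higher (7.14%) and 3 called lower (9.61%), again Fbn1, Mfap5 and Efemp1. Mfap4, at a ratio of 0.506, just missed being called lower there and stayed uncalled in only 6 of 20 alternative settings. Each class was compared with a pool that holds the others, so a gene high in 1 class can be called lower in several. Of the tenocyte or ligament fibroblast-like calls, the 3 lower ones held in all 23 alternative settings and the 3 higher ones did not: over the 23 the Fbn2 ratio ran from 1.78 to 2.54 and lost its call in 6, the Mfap4 ratio from 1.66 to 2.89 (lost in 4) and the Emilin1 ratio from 1.70 to 2.35 (lost in 3).

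**Figure D3:**
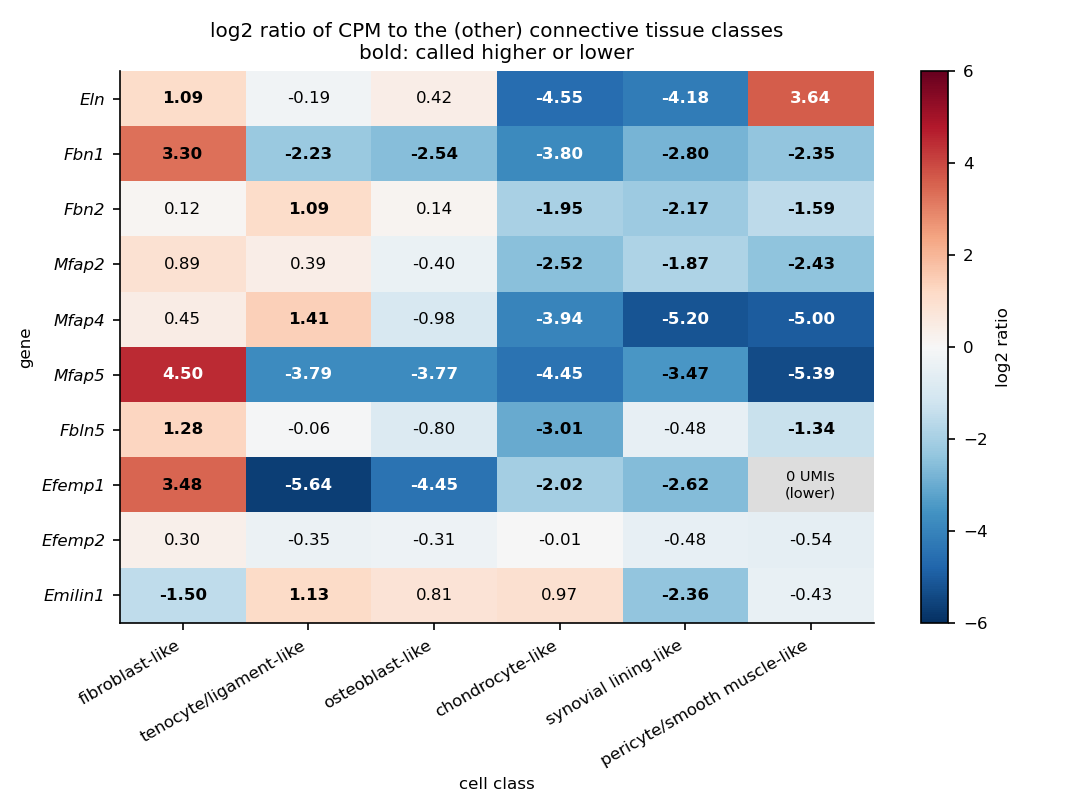
Heat map of the log2 ratio of each member's CPM (rows) in a cell class (columns) to the other connective tissue classes pooled, with red higher, blue lower and bold the called ones. Fbn1, Mfap5 and Efemp1 are deep red in fibroblast-like cells (log2 ratios of 3.30, 4.50 and 3.48), and the chondrocyte-like and synovial lining fibroblast-like columns are mostly blue.

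Fbn1 and Fbn2 encode the fibrillins, the backbone of the microfibril, with Fbn2 known as the form more used in fetal tissue. Fbn1 was a gene of the fibroblast-like cells, at 1412 CPM (1315 in set 1 and 1503 in set 2), with muscle progenitor-like cells next among the named classes at 252 CPM and tenocyte or ligament fibroblast-like cells at 214 (225 and 203). The muscle progenitor-like level was uneven: 2592 of its 2723 Fbn1 UMIs were in 1 of its 2 clusters, 10 of 670 cells held 44.3%, and the level without those cells was 146 CPM. Fbn2 had another order. It was highest in tenocyte or ligament fibroblast-like cells at 211 CPM (249 and 176), followed by osteoblast-like cells at 122 (130 and 109) and fibroblast-like cells at 116 (117 and 114), which did not separate from each other, against 9.41 CPM in blood. The Fbn2 ratio of tenocyte or ligament fibroblast-like cells to the other classes was 2.13 (2.50 in set 1 and 1.80 in set 2), so set 2 alone did not reach 2.

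Mfap2 and Mfap5 encode the paired microfibril-associated glycoproteins MAGP-1 and MAGP-2, which bind fibrillin. Mfap2 was shared by tenocyte or ligament fibroblast-like cells (513 CPM, 475 and 547 in the sets) and fibroblast-like cells (496 CPM, 438 and 550), which did not separate, with osteoblast-like cells at 314. Mfap5 was highest in the fibroblast-like class, at 2214 CPM (2147 and 2278), with 90.2% of its UMIs there. Tenocyte or ligament fibroblast-like cells, at 112 CPM, and osteoblast-like cells, at 110, were not above the 81.0 CPM of blood under the call rule. Blood was not the lowest level of Mfap5: macrophage-like cells had 41.1 CPM and endothelial-like cells 13.3. A level not above blood therefore need not be that of free RNA. Muscle progenitor-like cells had 279 CPM, but 10 of the 670 cells held 53.9% of the UMIs and the level without them was 134 CPM. Their summed fibroblast markers were at 1324 CPM, against 520 in blood. In skeletal myofibre-like cells the sets differed, with 52.4 CPM in set 1 and 426 in set 2, and the summed fibroblast markers differed there too (254 and 1949 CPM), whose part in the difference was not tested.

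Mfap4, which encodes a fibrinogen-related protein of elastic fibres that binds fibrillin and tropoelastin, was highest in tenocyte or ligament fibroblast-like cells. Its level was 1479 CPM there (1235 and 1703), 746 in fibroblast-like cells (601 and 882) and 353 in osteoblast-like cells (394 and 285). All 3 levels separated in both sets, and the ratio of tenocyte or ligament fibroblast-like cells to the other classes was 2.65. In chondrocyte-like, synovial lining fibroblast-like and pericyte or smooth muscle-like cells Mfap4 was near the blood level of 35.0 CPM, at 50.8, 18.6 and 20.7.

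The short fibulins Fbln5, Efemp1 and Efemp2 guide elastin assembly to different degrees. Fbln5 (fibulin-5), which links tropoelastin to the microfibril and to cell integrins, had 134 CPM in fibroblast-like cells (122 and 145) and 99.1 in tenocyte or ligament fibroblast-like cells, and its ratio in fibroblast-like cells was 2.42. Endothelial-like cells had 85.3 CPM (63.3 and 102) and synovial lining fibroblast-like cells 74.5. Efemp1 (fibulin-3), a fibulin with a lesser known part in elastin deposition, was at 135 CPM in fibroblast-like cells (119 and 150) and at 24.1 in chondrocyte-like cells. In the tenocyte or ligament fibroblast-like class it had 26 UMIs in 700 cells, 22 of them in 1 cell. That was 1.95 CPM, below the 6.79 CPM of blood, and pericyte or smooth muscle-like cells had 0 Efemp1 UMIs. Efemp2 (fibulin-4), which brings lysyl oxidase to tropoelastin, was the most even member over 6 classes: 104 CPM in fibroblast-like, 96.2 in chondrocyte-like, 79.5 in osteoblast-like, 77.8 in tenocyte or ligament fibroblast-like, 70.0 in synovial lining fibroblast-like and 66.6 in pericyte or smooth muscle-like cells. Efemp2 was called in none of the 5 class comparisons.

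Emilin1 encodes a glycoprotein at the border of elastin and microfibrils, and it was the member lowest in fibroblast-like cells relative to the other connective tissue classes. It had 147 CPM in tenocyte or ligament fibroblast-like cells (145 and 148), 131 in chondrocyte-like cells (134 and 127) and 126 in osteoblast-like cells (120 and 135), the latter pair not separated. Fibroblast-like cells had 44.4 CPM (43.8 and 44.9), 2.83-fold lower than the other classes pooled. Only 27.0% of its UMIs were in fibroblast-like cells, against 53.9% for Fbn2, the next lowest member. Granulocyte progenitor-like cells had 18.8 CPM of Emilin1 against 7.53 in blood, the 1 member called above blood there (28.6% of all genes).

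**Figure D4:**
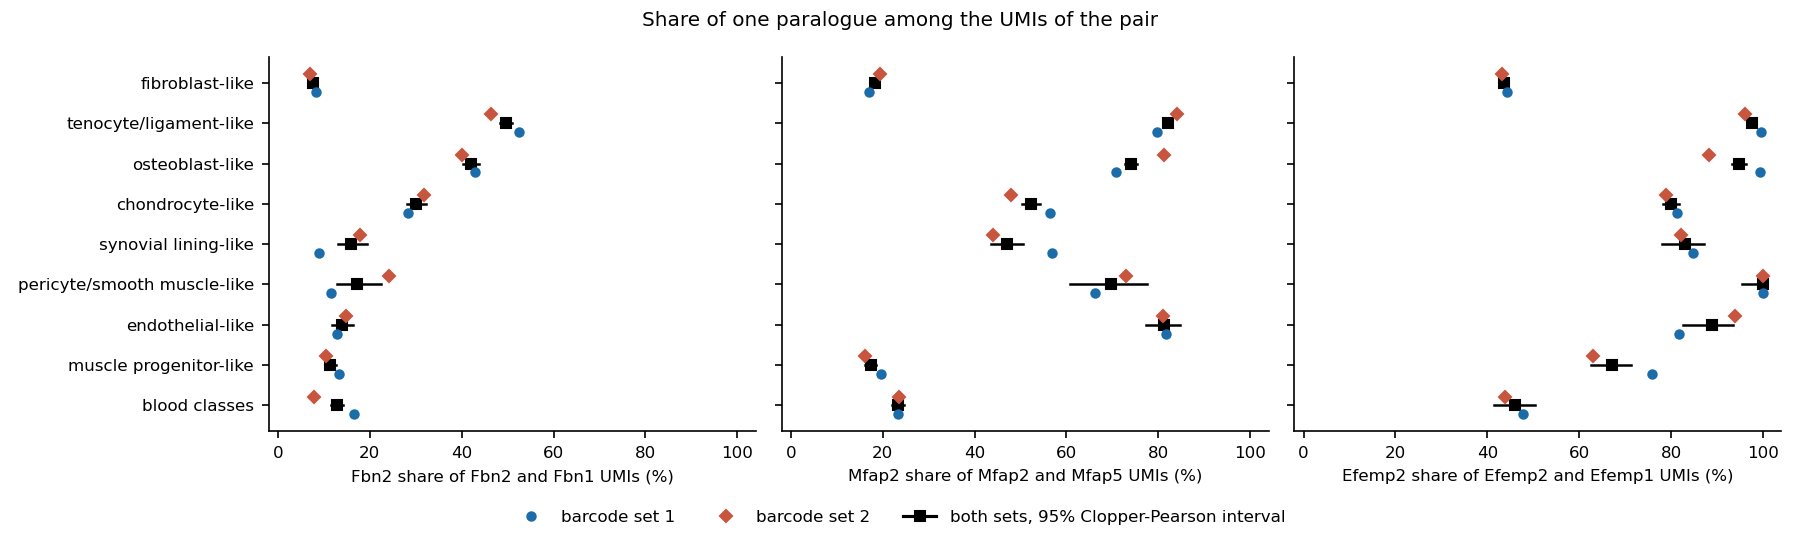
Share of 1 paralogue in the summed UMIs of a pair (percent), by cell class, with squares for both barcode sets together and their exact 95% intervals, circles for set 1 and diamonds for set 2. Fibroblast-like cells lie lowest among the connective tissue classes in all 3 pairs, at 7.57% for Fbn2, 18.3% for Mfap2 and 43.6% for Efemp2, and tenocyte or ligament fibroblast-like cells highest, at 49.6%, 82.1% and 97.6%.

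In 3 pairs of paralogues, the balance of the pair differed between the fibroblast-like and the tenocyte or ligament fibroblast-like cells. Fibroblast-like cells held mostly Fbn1 and Mfap5 of their pairs and similar counts of Efemp1 and Efemp2, while tenocyte or ligament fibroblast-like cells held Fbn1 and Fbn2 about equally and mostly Mfap2 and Efemp2. The Fbn2 share of all fibrillin UMIs was 7.57% (95% exact interval 7.41 to 7.74) in fibroblast-like and 49.6% (48.3 to 51.0) in tenocyte or ligament fibroblast-like cells. The Mfap2 share of Mfap2 and Mfap5 UMIs was 18.3% and 82.1% in the same classes, and the Efemp2 share of Efemp1 and Efemp2 UMIs was 43.6% and 97.6%. Osteoblast-like cells lay on the tenocyte side, with shares of 42.0%, 74.0% and 94.8%. Chondrocyte-like cells were between in the summed UMIs, at 30.1% for Fbn2 and 52.3% for Mfap2, and had 80.0% Efemp2. Their Fbn1 and Mfap5 were not above blood under the call rule. The 10 richest of 870 cells for each gene held 36.9% of the Fbn1 and 71.5% of the Mfap5 UMIs. Without the 10 richest cells of each gene, Mfap5 had 21.6 CPM and Mfap2 70.8, and Fbn1 had 49.5 CPM and Fbn2 24.5. The blood classes had shares of 12.8%, 23.4% and 45.9%. The summed fibroblast markers were at 9996 CPM in fibroblast-like and 6005 in tenocyte or ligament fibroblast-like cells.

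Chondrocyte-like and synovial lining fibroblast-like cells had low levels of most members. In chondrocyte-like cells, 8 of the 10 were called lower (22.7% of all genes) and 0 higher (9.08%) against the pool of the 4 remaining classes. They were from 3.86-fold (Fbn2) to 23.4-fold (Eln) lower, and Efemp2 and Emilin1 were not called, with ratios of 0.995 and 1.96. Synovial lining fibroblast-like cells, named for the layer that secretes joint lubricant, also had 8 called lower (17.1%) and 0 higher (10.1%). The range there was 3.66-fold for Mfap2 to 36.8-fold for Mfap4, with Fbln5 and Efemp2 not called at ratios of 0.719 and 0.718. Emilin1 differed between these classes, with 131 CPM in chondrocyte-like and 15.3 in synovial lining fibroblast-like cells.

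Other genes of elastic fibre assembly and turnover, 44 in 6 lists, were counted in the same comparisons. Of the 41 with enough UMIs, 26 were called lower and 4 higher in chondrocyte-like cells, where 22.7% and 9.08% of all genes were. In synovial lining fibroblast-like cells 20 were called lower and 2 higher, where 17.1% and 10.1% of all genes were. The lysyl oxidase paralogues Loxl4 and Loxl3 were the most raised in chondrocyte-like cells, at 88.8 against 2.93 CPM and at 105 against 27.7 CPM in the other classes. The most lowered were Fbln2, fibulin-2, at 9.05 against 233 CPM and Itgb3, the integrin beta-3 chain, at 4.89 against 109. In synovial lining fibroblast-like cells the ADAMTS-like genes Adamtsl1 (712 against 135 CPM) and Adamtsl5 (63.4 against 15.8 CPM) were called higher. Emilin3, Mmp12 and Ctss had 0 UMIs in those 157 cells.

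The fibroblast-like class was also split into states by named marker genes, and the members differed less between states than between classes. The state with Cxcl5 and Csf2, inflammatory signals, was 1773 cells. It had 0 members called higher (8.16% of 12821 genes) and 2 lower (27.5%) than the other fibroblast-like cells: Mfap4, at 461 against 1088 CPM, and Fbln5, at 88.4 against 189 CPM. The Mfap4 ratio was 0.424, and its call was the same in 20 of 23 alternative settings. Where a cluster needed a mean marker log2 fold of 1.5 for its name, the cluster of this state, at 1.49, left the fibroblast-like class. The state name then fell on other cells, so the Mfap4 ratio of 1.06 there does not describe these 1773 cells. The Fbln5 call was lost in 10 of 23 alternative settings. The state with Abca8a and Ebf2, 965 cells, had 0 called higher (15.2%) and 0 lower (7.27%), and Fbln5 came nearest with a ratio of 1.94. The third cluster, 1083 cells led by Nnmt, Gadd45g and Prlr, had 0 higher (11.1%) and 0 lower (6.58%), with Mfap4 nearest at a ratio of 1.83. The states marked by Pi16 and Dpp4 and by Sfrp4 and Ccl11 did not form clusters of their own at this resolution. In the finer division described next, subcluster 5 (322 cells) took the Pi16 and Dpp4 state, at a mean marker log2 fold of 1.10. No subcluster took the Sfrp4 and Ccl11 state.

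A finer division into 13 subclusters, made without the members and added after the clusters had been seen, showed wider ranges, given as descriptions. Mfap4 ranged from 138 CPM in subcluster 8 (led by Tnfsf9, Csf2 and Brinp3) to 2549 in subcluster 10 (led by A730049H05Rik, Ccl11 and Depdc5). Eln was also highest in subcluster 10, at 1866 CPM, though the sets differed there (1206 and 2365), and lowest in subcluster 5 at 272. In subcluster 10, 10 of 152 cells held 58.7% of the Eln UMIs, and the level without them was 949 CPM. Efemp1 was nearly absent from subcluster 10, at 1.24 CPM, and highest in subcluster 6 (led by Dact2, Cmah and Efhd1) at 396. Fbn1 and Mfap5 were also highest in subcluster 6, at 3452 and 4810 CPM, and both were lowest in subcluster 2 (led by Ereg, Cemip and Ccl19), at 591 and 1034.

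Efemp1 divided the subclusters into 4 with at least 300 CPM (1123 cells) and 9 with at most 120 CPM (2698 cells). Fbn1 did not overlap between these groups, with 2361 to 3452 CPM in the 4 and 591 to 1059 in the 9, nor did Mfap5, with 3412 to 4810 and 1034 to 1807. Of 12821 genes with at least 100 UMIs in these cells, 0.920% were higher in the 4 with no overlap, Efemp1 itself among them by the way the groups were made. Mfap4 and Emilin1 leaned the other way with overlap: the pooled levels were 344 and 921 CPM for Mfap4, and 16.6 and 56.5 CPM for Emilin1. Eln and Fbn2 leaned that way less, also with overlap, at 420 and 752 CPM for Eln and 90.6 and 127 CPM for Fbn2. Mfap2, Fbln5 and Efemp2 differed little, with pooled ratios of 0.894, 1.11 and 1.03. The grouping was chosen after the values were seen and was not tested. Subclusters 4 and 12 were led by neutrophil and haemoglobin genes, and Eln in the fibroblast-like class was not called without them.

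**Figure D5:**
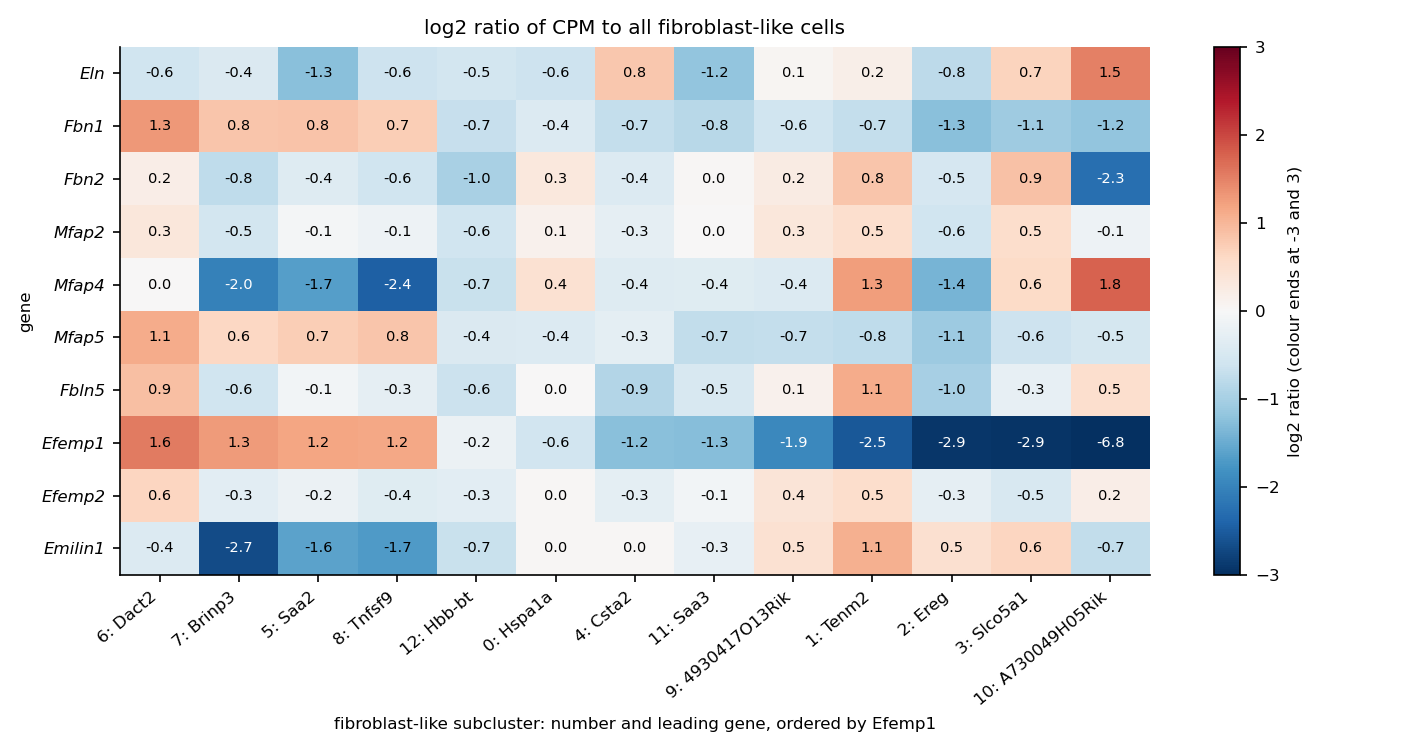
Heat map of the log2 ratio of each member's CPM (rows) in the 13 fibroblast-like subclusters (columns, ordered by Efemp1, each with its leading gene) to its CPM in all fibroblast-like cells, with red higher and blue lower. Subclusters 5 to 8 are high in Fbn1, Mfap5 and Efemp1, and subcluster 10 is high in Eln (1866 CPM) and Mfap4 (2549 CPM) and lowest in Efemp1 (1.24 CPM).

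Outside the connective tissue classes, muscle progenitor-like cells had 9 members above blood (38.1% of all genes), endothelial-like cells 6 (32.9%), skeletal myofibre-like cells 3 (16.7%), and macrophage-like and mast cell-like cells 0 (19.4% and 14.8%). Some muscle progenitor-like calls rested on few cells: the 10 richest of 670 held 73.3% of the Eln and 83.3% of the Efemp1 UMIs. Without them the levels were 26.3 and 2.38 CPM, below the blood levels of these genes. The other members called there stayed above their blood levels without the 10 richest cells of each. These were Fbn1 at 146 CPM, Fbn2 at 25.7, Mfap2 at 31.9, Mfap5 at 134, Fbln5 at 11.1, Efemp2 at 21.5 and Emilin1 at 17.0. The call rule was not applied to these lowered levels. Of 3 clusters that stayed unnamed, cluster 21 (247 cells led by S100a4, Rgs7 and Anxa8) had 601 CPM of Fbn1 and 870 of Mfap5, next after fibroblast-like cells for both. Its Eln level was 291 CPM but differed between the sets, at 430 and 155. Cluster 12 (led by Msmp, Cytl1 and Mup5) had 98.1 CPM of Emilin1, after tenocyte or ligament fibroblast-like, chondrocyte-like and osteoblast-like cells in the order.

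The genes whose level followed each member most closely over the 28 clusters were found by Pearson's r of log2(CPM + 10) among 11317 genes. The clusters come from 1 matrix and differ in depth, so r is a description. Eln was nearest to Cacna1c (r = 0.94), a calcium channel of smooth muscle, followed by Ppfia2 and Nfatc4. Fbn1 was nearest to Vcan (r = 0.95), the proteoglycan versican, followed by Fstl1 and Col3a1, and Mfap2 to Pcolce (r = 0.98), a procollagen processing enhancer, followed by Thbs3 and Mmp2. Fbn2 went with Angptl2, Abi3bp and Fndc4, and Mfap4 with Sfrp2, Fndc1 and Serpinf1. Mfap5 went with Clec3b, Dpt and Igfbp6, of which Clec3b and Dpt had served to name the fibroblast-like class. Fbln5 went with Nid1, Tshz2 and Lysmd2, Efemp1 with Arsi, Adgrd1 and Krtdap, Efemp2 with Gpr153, Ror2 and Chpf, and Emilin1 with P3h1, Ikbip and Fkbp11. Among the members themselves, the highest r was that of Fbn2 with Mfap2, 0.94, and the lowest that of Efemp1 with Emilin1, 0.32.

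By the GENCODE annotation of GRCm38, on which the gene names were placed, Eln lies on chromosome 5 at 134702593 to 134747323 (minus strand), Fbn1 on chromosome 2 at 125300594 to 125507993 (minus), Mfap4 on chromosome 11 at 61485431 to 61488900 (plus) and Mfap5 on chromosome 6 at 122505845 to 122529290 (plus). Mfap2 lies on chromosome 4 at 141010418 to 141015984 (plus) and Fbln5 on chromosome 12 at 101746565 to 101819055 (minus). Efemp1 lies on chromosome 11 at 28853204 to 28926743 (plus), Efemp2 on chromosome 19 at 5473954 to 5482517 (plus) and Emilin1 on chromosome 5 at 30913402 to 30921277 (plus). Eln, Fbn1, Fbn2, Mfap4 and Efemp2 overlap a gene on the other strand (Gm30003, Gm9913, Gm26507, Mapk7 and Mus81). UMIs were counted by the authors' pipeline, and the share of them that could belong to those neighbours was not tested.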

How the data were processed

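Per the labels' protocols, knee joint cells were captured with 10x Genomics 3′ version 3 chemistry, and per the submitters' processing notes the authors used Cell Ranger 7.0.0 with mouse build mm10. The values are raw UMI counts per gene and cell, deposited by the authors as 1 merged filtered matrix of 24203 barcodes and 257619292 UMIs, not normalized. The cell filter of 500 genes, 1000 UMIs and 10% mitochondrial UMIs was applied to them. scanpy 1.11.5 and leidenalg 0.10.2 clustered them (2000 variable genes, 30 components, 15 neighbours, resolution 1, seed 1), leaving out 939 genes: the members, the related lists, collagens, mitochondrial, ribosomal, Xist and Y-linked genes. No doublets were removed. Scrublet called 0.0419% of set 1 and 0.0125% of set 2, too few to have worked.

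A cluster took the class of the highest mean marker log2 fold (pseudocount 10 CPM) where the median was at least 1 and at least 3 markers rose in at least 10% of its cells. A rule added after the clusters were seen left a cluster unnamed where its 10 leading genes held more markers of another class. Levels are UMIs summed over cells per 1000000, with 95% exact Poisson intervals, ratios have exact conditional binomial intervals, and shares have Clopper-Pearson intervals (scipy 1.17.1). The call rule was checked on simulated Poisson counts in which the changed genes lay well beyond the call ratio. Uneven spread over cells and ratios near the call ratio were not simulated. With 1 sample there is no p-value, and amplification and droplet effects lie outside the intervals.

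The members and lists, including the state markers, were chosen with earlier results of these data known. Named in the text are all members, the 2 most raised and 2 most lowered called list genes in the classes with most member calls, the 3 genes nearest each member in pattern and the 3 leading genes of a cluster, while other genes were named after their values were seen. In synovial lining fibroblast-like cells 3 list genes tied at 0 UMIs and all are named. The 23 alternatives changed clustering, cell filters, barcode set, level, call ratio and naming.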

Additional observations from a re-analysis of the deposited data

How the results depend on the processing

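Of 33 calls of a member in a class or state, 27 were the same under every alternative run, and none became a call in the other direction. For 1 the ratio passed to the other side of 1 and the call was lost. This was Mfap4 in the Cxcl5 Csf2 state, at 1.06 where naming required a mean marker log2 fold of 1.5 or more. The main cluster of that state was then not named fibroblast-like, so this ratio compares other cells. Of the alternatives, 19 were planned and 4 were chosen after seeing the data (naming without the check of leading genes, the fold of 1.5, leaving out the 10 richest cells, and leaving out subclusters 4 and 12). The cause of the changes below was not tested. The share of all genes called was counted at the main settings only, so the counts below are not results about the members. A count within 1.5-fold of the main count was taken as unchanged. Tenocyte or ligament fibroblast-like cells had 1 member called higher in place of 3 at resolution 0.5, with seed 2 and without the cells Scrublet called, and 0 with 15 components. In the first 3 of these settings no osteoblast-like class formed, and with 15 components no synovial lining fibroblast-like class, so the pools compared differed. The cells Scrublet called were only 3 of set 1 and 1 of set 2. Osteoblast-like cells had 1 called higher at a call ratio of 1.5. In place of 3 they had 6 called lower when members entered the clustering or cells needed 1000 genes and 2000 UMIs, and 5 with cells of at least 200 genes and 500 UMIs, at a ratio of 1.5 or without the 10 richest cells. With 1 barcode set left out, that count was 3 to 5. Chondrocyte-like cells had 1 called higher, in place of 0, at resolution 2, with 15 components, without the 5% of cells of highest Scrublet score, with the blood level subtracted and at a ratio of 1.5.

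The Cxcl5 Csf2 state had 1 called higher without those 5% of cells. In place of 2 it had 1 called lower at resolution 2, 15 components, seed 2, centred components, the looser cell filter and per-cell means. It had 0 without the cells Scrublet called, 4 at a ratio of 1.5, and 1 to 2 with 1 barcode set left out. With the fold of 1.5 the count was also 0, but there the state name fell on other cells. The Abca8a Ebf2 state had 2 called higher, in place of 0, at resolution 0.5, 4 at a ratio of 1.5, and 1 at resolution 2, 15 components, seeds 2 and 5, centred components, members in the clustering, both Scrublet settings, both cell filters, at most 5% mitochondrial UMIs and blood subtracted, with 0 to 1 when 1 barcode set was left out.

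The differences in paralogue share between tenocyte or ligament fibroblast-like and fibroblast-like cells kept their direction. For Fbn2 the main difference of 42.1 percentage points became 39.6 at resolution 0.5, 34.6 with 15 components, 39.5 with seed 2 and without cells Scrublet called, 38.9 without rounding, 39.0 with members clustered, 39.2 and 39.95 with the stricter and looser cell filters, 50.01 with blood subtracted and 40.5 with the fold of 1.5, and 39.3 to 44.3 with 1 barcode set left out. For Mfap2 the 63.8 points became, in the same order, 60.7, 53.3, 60.5 and 60.6, 57.3, 60.2, 60.7 and 59.1, 75.9 and 60.5, and 66.9 without the 10 richest cells. For Efemp2 the 54.0 points became 56.1 with at most 5% mitochondrial UMIs, 56.5 with blood subtracted, 48.4 with the fold of 1.5 and 55.8 without the 10 richest cells. Thinning to 1000 UMIs in place of 2000 took the median share of fibroblast-like cells with a member's UMI from 28.0% to 19.1%. Of the 30 pairs of a member and a nearest gene, 16 were also nearest with a pseudocount of 1.

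No osteoblast-like class formed at resolution 0.5, with seed 2 or without the cells Scrublet called. No synovial lining fibroblast-like class formed with 15 components, and no Abca8a Ebf2 state with the fold of 1.5. With that fold the fibroblast-like class also lacked the 1773 cells of the main Cxcl5 Csf2 state. No paired analysis was possible because the cells form 1 merged matrix in which barcodes are tied to no replicate. Classes of few cells limit the depth: the 102 pericyte or smooth muscle-like cells held 1156709 UMIs in all, against 68276320 in the fibroblast-like cells. Class totals also cannot separate fewer expressing cells from less RNA per cell.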

Other observations

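Genes that act beside the members in microfibril assembly were also counted in the fibroblast-like states, a list picked for mention after its values were seen. Of 9 measured fibrillin-associated ADAMTS and ADAMTS-like genes, 5 were called higher in the Abca8a Ebf2 state than in the other fibroblast-like cells, where 15.2% of all genes were, with a median log2 ratio of 1.18 against 0.24 over all genes. In the Cxcl5 Csf2 state 5 of the 9 were called lower, where 27.5% of all genes were, with a median of -1.24 against -0.34. Each state is part of the pool that the other was compared with, so the values are not independent. In the cluster led by Nnmt, Gadd45g and Prlr, 0 of the 9 were called in either direction.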
